A study of Mus musculus with 10 samples.

Results

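The Id genes, Id1, Id2, Id3 and Id4, encode a small family of transcriptional inhibitors, and their transcripts were followed here in mouse aorta with and without a mutation of the clock gene Npas2. The members are all probe sets whose gene symbol in the platform annotation is Id1, Id2, Id3 or Id4, which gave 8 probe sets (1 for Id1, 3 for Id2, 1 for Id3 and 3 for Id4) of the 45101 in the table. The 4 genes, of 18194 genes with a probe set of their own, were selected on the measured fall of Id4 in the mutant in these same arrays. The difference between mutant and wild type is therefore a description for its members. Calls of the fit across all probe sets are printed only to place them and support nothing. The arrays held RNA from aorta of male mice killed at zeitgeber time 14 h, and the labels put this after 2 weeks or more of 12 h light and 12 h dark and then at least 30 h in constant darkness. The 5 wild-type arrays carry the strain name C57Bl/6 and the identifiers F11, F14_2, F15, F16 and F17. The 5 mutant arrays are labelled as NPAS2 mutant on a C57Bl/6J background, with the identifiers F12, F13, F18, F19 and F20. The strain names differ with the genotype, so any difference of strain cannot be told apart from the mutation. The labels do not state the nature of the mutation, the ages of the mice or any pooling of animals, and the spread between arrays of a group may be partly technical. Mice were perfused through the heart before dissection, and 1 label describes thoracic aorta while another describes a piece from the arch to beyond the femoral branching.

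Id proteins carry a helix-loop-helix domain for pairing with other proteins but lack the basic region that touches DNA. They capture the E proteins, which are partners of the tissue-restricted basic helix-loop-helix (bHLH) factors, and so keep those factors off their E-box sites. Bone morphogenetic proteins (BMPs), acting through receptor-activated Smads, are well-known inducers of Id1, Id2 and Id3. In the vessel wall Id genes are studied in endothelial cell growth and in smooth muscle differentiation. Id proteins are also linked to the circadian clock, because they can interfere with the bHLH activators CLOCK and BMAL1, and NPAS2 is a paralogue of CLOCK.

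The Id genes lie on separate chromosomes in assembly GRCm38.p6. Id1 spans chromosome 2 from 152736251 to 152737410, Id2 chromosome 12 from 25093799 to 25096092, Id3 chromosome 4 from 136143822 to 136145392, and Id4 chromosome 13 from 48261116 to 48266028. The 250 bases upstream of the annotated start are printed for 3 of the genes, because NPAS2 paired with BMAL1 binds the E-box CACGTG. The sequences are from RefSeq (GRCm38.p6), 5′ to 3′ on the strand of the gene. Capitals mark matches to CAGCTG, an E-box of E proteins, and to GGCGCC, an element of BMP-activated Smads. The Id4 window is chr13:48260866-48261115 on the plus strand, the Id2 window is chr12:25096093-25096342 on the minus strand and the Id3 window is chr4:136143572-136143821 on the plus strand.
Id4: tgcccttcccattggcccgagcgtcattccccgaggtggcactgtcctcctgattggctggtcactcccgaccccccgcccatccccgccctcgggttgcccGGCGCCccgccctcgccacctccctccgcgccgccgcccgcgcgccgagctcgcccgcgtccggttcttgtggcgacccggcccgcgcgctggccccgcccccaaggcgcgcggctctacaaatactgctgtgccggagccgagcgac
Id2: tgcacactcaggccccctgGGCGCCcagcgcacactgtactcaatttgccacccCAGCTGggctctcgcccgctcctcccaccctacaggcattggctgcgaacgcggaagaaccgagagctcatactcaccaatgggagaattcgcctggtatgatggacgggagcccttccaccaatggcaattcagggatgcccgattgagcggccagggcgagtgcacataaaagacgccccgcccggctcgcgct
Id3: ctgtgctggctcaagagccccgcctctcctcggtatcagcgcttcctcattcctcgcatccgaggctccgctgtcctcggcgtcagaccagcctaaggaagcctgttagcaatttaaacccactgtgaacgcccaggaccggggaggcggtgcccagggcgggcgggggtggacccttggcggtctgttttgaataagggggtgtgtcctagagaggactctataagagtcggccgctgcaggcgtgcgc

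The letters CACGTG were in 0 of these 3 windows, and 6.02% of the 32851 RefSeq windows of the same length held them. CAGCTG was in the Id2 window alone, with its first base 196 bases upstream of the start, and 13% of all windows held it. GGCGCC was in the Id4 window, from 148 bases upstream, and in the Id2 window, from 231 bases upstream, against 9.59% of all windows. Each motif is its own reverse complement, so a single search covers both strands, and no matches overlapped in the Id windows. The Id4 window was richer in G and C, at 75.6%, than those of Id2 and Id3, both at 62.8%, and the median over all windows was 52.4%. It held 35 CpG dinucleotides, against 18 in the Id2 window, 18 in the Id3 window and a median of 6.

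Marker signals of other tissues and cell types differed between arrays, in part with the group, and are given first. Markers of skeletal muscle, which lies outside the vessel, varied widely: the mean log2 level of the 12 markers, Acta1 and Tnnt3 the brightest, ran from 3.23 to 9.90 on wild-type arrays and from 3.27 to 11.05 on mutant arrays. Wild type F16 and mutants F12, F19 and F20 carried most of this signal. For brown fat, which surrounds the thoracic aorta, the marker signal differed with the group. The mean of 11 measured markers of 14 lay between 7.82 and 8.38 on wild-type arrays and between 8.61 and 9.13 on mutant arrays, with no overlap. The mutant mean was the higher one for 10 of these 11 genes, and 0 passed the limma test over all probe sets, with 8 at an unadjusted p of 0.05. Over all 10945 tested genes, by brightest probe set, 15% had an unadjusted limma p under 0.05. Of the same genes 55.9% had a lower mean in the mutant. The median difference of the 11 was 0.60 on the log2 scale. Elovl3, which lengthens fatty acids, stood at 4.15 in wild type and 6.73 in the mutant, a difference of 2.57 ± 0.58 (SE). Ucp1, the uncoupling protein that makes heat, stood at 11.42 ± 0.52 and 12.42 ± 0.29 (SD, n = 5 each). The brightest of them, Cidea and Cox8b, stood at 12.23 and 12.11 in wild type and at 12.46 and 12.53 in the mutant. Acta2 and Tagln were the brightest smooth muscle markers. Acta2, smooth muscle actin, stood at 14.42 ± 0.10 in wild type and 14.38 ± 0.06 in the mutant (SD, n = 5 each), and the means of the smooth muscle list overlapped, at 10.73 to 11.04 and 10.59 to 10.91. Of 8 smooth muscle genes tested 7 had a lower mean in the mutant and 0 were called, with 4 at an unadjusted limma p of 0.05, and the median difference was -0.21. Those 4 were Smtn (-0.33 ± 0.10, SE), Cnn1 (-0.26 ± 0.07), Lmod1 (-0.26 ± 0.08) and Myh11 (-0.18 ± 0.06). For Lmod1 and Myh11 the mutant arrays lay wholly below the wild-type arrays, as they did for 2.5% of tested probe sets. Of 10 macrophage genes tested 9 had a higher mean and 0 were called, with 3 at an unadjusted limma p of 0.05, namely Cd14 (0.45 ± 0.13), Lyz2 (0.36 ± 0.12) and Adgre1 (0.35 ± 0.14). The part of these markers in the differences below was not tested beyond the covariates given. The list means of endothelial genes (Vwf and Pecam1 the brightest), fibroblast genes (Dcn, Col1a2) and adipocyte genes (Fabp4, Adipoq) overlapped between the groups as well. So did those of macrophage genes (Lyz2, Csf1r), nerve genes (Pmp22, Mbp) and immediate early genes (Dusp1, Ccn1). Such means can hold genes that differ in opposite directions. Of 10 endothelial genes 2 had an unadjusted limma p under 0.05, Emcn (0.50 ± 0.14, SE) and Pecam1 (-0.33 ± 0.12). Of 6 adipocyte genes 2 did, Lep (-0.78 ± 0.22) and Cidec (0.28 ± 0.09). Of 16 immediate early genes 2 did, Jun (-0.60 ± 0.26) and Ier3 (-0.38 ± 0.14). No fibroblast or nerve gene did. Npas2 itself was dim, with a log2 level between 3.44 and 3.96 in wild type and between 3.38 and 3.47 in the mutant on its brighter probe set. Because the part of the transcript that this probe set reads is not known here, it does not check the genotype labels.

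**Figure D1:**
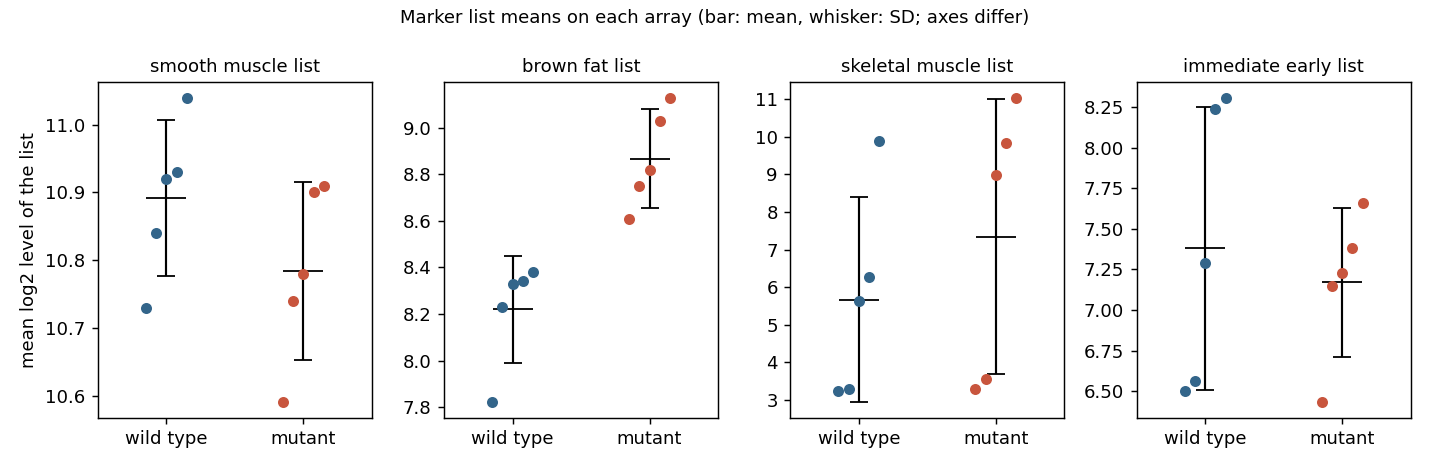
Mean log2 level of the smooth muscle, brown fat, skeletal muscle and immediate early marker lists on each array (points), with group mean (bar) and SD (whisker), wild type in blue and mutant in red; each panel has its own axis. The brown fat points of the groups do not overlap, and the skeletal muscle points run from 3.23 to 11.05.

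Across the family every probe set had a lower mean level in the mutant, 8 of 8, and the deficit was deepest for Id4. Of the 8, 3 passed a limma adjusted p of 0.05 and all 3 were Id4, where 0.121% of the 22340 tested probe sets passed with a lower level and 0.215% passed in either direction. Of the 5 probe sets outside Id4, 0 passed. On 1 of these 5, an Id2 probe set, the mutant arrays lay wholly below the wild-type arrays, as they did on the 3 of Id4, and 2.5% of tested probe sets showed that separation. The median difference of the 5 was -0.24 on the log2 scale, beside -0.03 over all tested probe sets, of which 57.6% had a lower mean in the mutant. The contrast that chose the family is the one described, so nothing is read from these shares and medians. All values below are log2 levels as deposited, differences are mutant minus wild type, and levels are compared only within a probe set. Because the aorta was assayed in bulk, fewer cells of a type and less RNA per cell cannot be told apart.

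**Figure D2:**
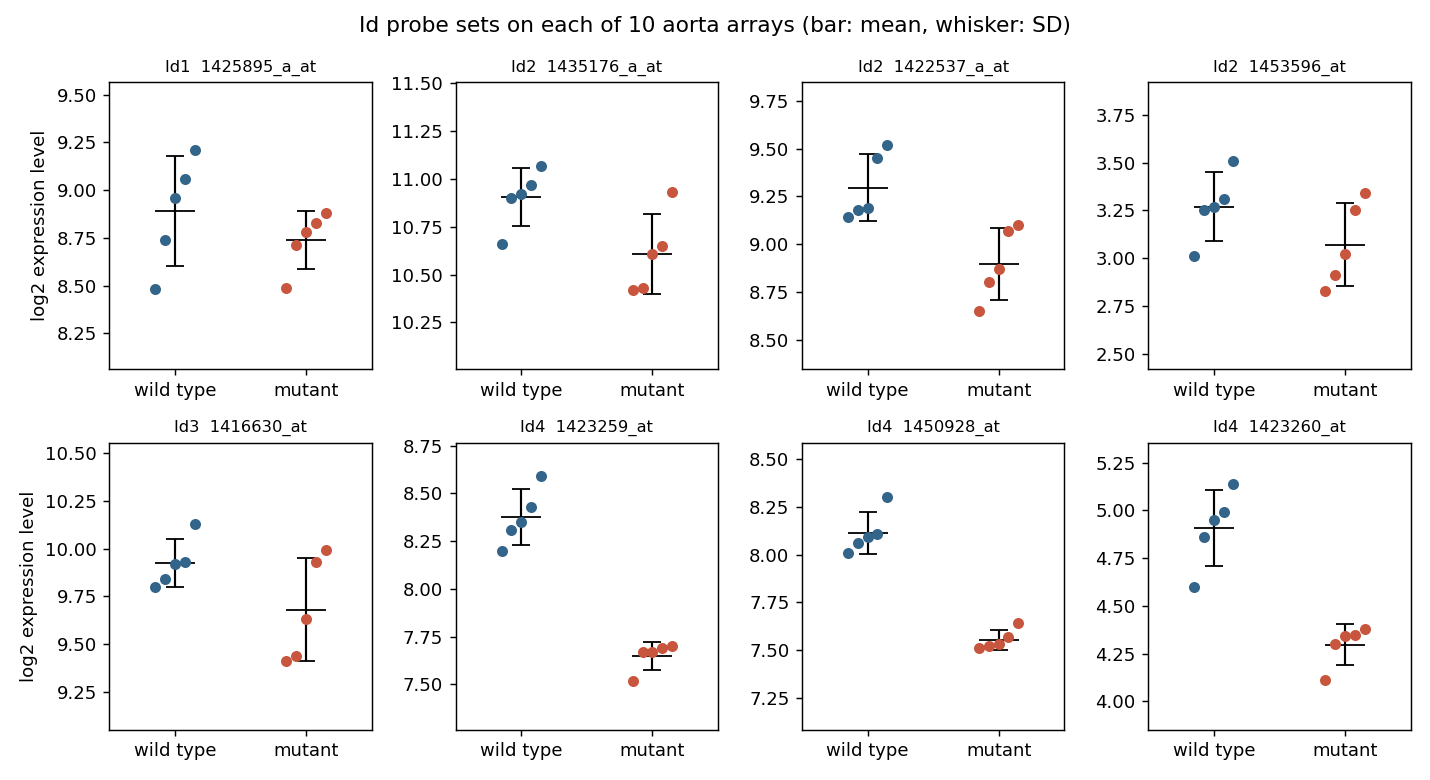
Log2 expression level of the 8 Id probe sets on each of the 10 arrays (points), with group mean (bar) and SD (whisker), wild type in blue and mutant in red; every panel spans 1.5 log2 units. The groups are apart in the 3 Id4 panels and, by 0.05, in the panel of Id2 probe set 1422537_a_at.

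Id4 is a family member known from brain and glial development and from fat and bone differentiation. Its brightest probe set, 1423259_at, read 8.20, 8.35, 8.59, 8.31 and 8.43 on wild-type arrays F11, F14_2, F15, F16 and F17. It read 7.67, 7.69, 7.70, 7.52 and 7.67 on mutant arrays F12, F13, F18, F19 and F20. The lowest wild-type array was 0.50 above the highest mutant array, and the mutant arrays lay closer together than the wild-type ones. The means were 8.38 ± 0.15 and 7.65 ± 0.07 (SD, n = 5 each), a difference of -0.73 ± 0.08 (SE), which leaves 60.4% of the wild-type level. Of the 22340 tested probe sets 40, this one included, had a fall at least as deep.

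The other Id4 probe sets gave the same picture. Probe set 1450928_at read 8.06, 8.09, 8.30, 8.01 and 8.11 in wild type and 7.52, 7.51, 7.64, 7.53 and 7.57 in the mutant, in the same order of arrays. The groups were 0.37 apart, and the difference was -0.56 ± 0.06 (SE), or 67.7% of the wild-type level. Probe set 1423260_at was much dimmer, with 4.86, 4.60, 5.14, 4.95 and 4.99 in wild type and 4.38, 4.11, 4.34, 4.35 and 4.30 in the mutant. The groups were 0.22 apart there, with a difference of -0.61 ± 0.10 (SE). Its call was lost with no filter on dim probe sets, by one-way analysis of variance, with each of the 3 marker covariates and in 9 of the 10 fits that left out an array. The 3 probe sets are drawn from a single source transcript in the annotation and share their arrays, so they are not independent measures. After removal of the group means, 1423259_at and 1450928_at moved together over the 10 arrays at r = 0.77, and the dim 1423260_at followed them at 0.38 and 0.51.

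The Id4 difference was set beside the brown fat markers, which also separated the groups. Within groups, the correlation of Id4 with the brown fat list mean was 0.01 over 10 arrays with group means removed (Spearman rho -0.07, exact permutation p = 0.976 and 0.874, and r = 0.44 without the 2 arrays farthest from the median). With that list mean as a covariate the differences were -0.73, -0.54 and -0.51 for 1423259_at, 1450928_at and 1423260_at. None of the 3 then kept its call, in a fit where covariate and group largely coincide. When wild type F16 and mutants F12, F19 and F20, the muscle-rich arrays, were left out, the differences were -0.70, -0.57 and -0.67, with 4 wild-type and 2 mutant arrays left. No probe set of the table passed at that size, while 1549 had an unadjusted limma p under 0.05.

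Id2, the member tied to the clock by its own daily rhythm in several tissues, was lower by a smaller amount. Probe set 1422537_a_at read 9.45, 9.14, 9.52, 9.18 and 9.19 in wild type and 8.80, 8.65, 9.07, 9.10 and 8.87 in the mutant. All 5 mutant arrays were below all wild-type arrays, although mutant F19 came within 0.05 of wild type F14_2. The difference was -0.40 ± 0.11 (SE, 95% interval -0.63 to -0.16), or 76% of the wild-type level, and it did not pass over all probe sets. Of the Id probe sets that did not pass it had the lowest limma adjusted p, at 0.147. Of those that passed, the dim Id4 probe set had the highest, at 0.0387.

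The brightest Id2 probe set, 1435176_a_at, read 10.97, 10.90, 11.07, 10.66 and 10.92 in wild type and 10.43, 10.42, 10.93, 10.65 and 10.61 in the mutant. Mutant F18 stood within the wild-type range, and the other 4 mutant arrays were below every wild-type array. The difference was -0.30 ± 0.11 (SE, 95% interval -0.54 to -0.06). With the brown fat list mean as a covariate it was -0.06 (limma adjusted p = 0.955), while that of 1422537_a_at was -0.31 (adjusted p = 0.755). Covariate and group largely coincide in that fit, so the gap between these probe sets is poorly determined. The third Id2 probe set, 1453596_at, lay between 2.83 and 3.51 on all arrays, close to the array medians of 3.14 to 3.20. It passed the filter on dim probe sets with 6 of 10 arrays above the median, and its groups overlapped, with a difference of -0.20 ± 0.12 (SE). Both bright Id2 probe sets carry the suffix _a_at, which marks probes shared by transcripts of the same gene, and they moved together within groups at r = 0.77.

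Id3, which is induced by BMPs and growth factors in vascular cells, split the mutant arrays. Its probe set 1416630_at read 9.84, 9.92, 10.13, 9.93 and 9.80 in wild type. In the mutant it read 9.63, 9.41, 9.93, 9.99 and 9.44. Mutants F12, F13 and F20 were below every wild-type array, and F18 and F19 were within the wild-type range. The difference was -0.24 ± 0.12 (SE, 95% interval -0.51 to 0.03), and the interval includes 0. It was -0.13 with the brown fat list mean as a covariate.

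Id1, the main Id target of BMP signalling in endothelial cells, had the smallest difference. Its probe set 1425895_a_at read 8.74, 8.48, 9.06, 8.96 and 9.21 in wild type and 8.88, 8.83, 8.49, 8.71 and 8.78 in the mutant. The wild-type arrays spanned the whole mutant range, with wild type F14_2 the lowest of all 10. The difference was -0.15 ± 0.13 (SE, 95% interval -0.44 to 0.14). It was -0.08 with the brown fat list mean as a covariate. The difference between members was not tested, because Id4 was picked for its fall.

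**Figure D3:**
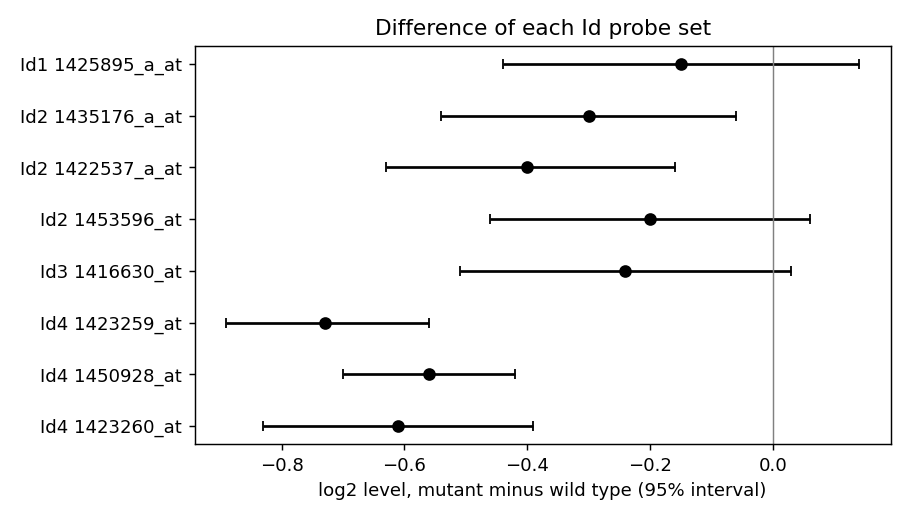
Difference in log2 level, mutant minus wild type, for each Id probe set (points) with its 95% interval from the limma fit (bars). All 8 points are below 0, from -0.15 for Id1 to -0.73 for Id4; the intervals of Id1, Id3 and the dim Id2 probe set 1453596_at include 0.

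No pair of Id genes was shown to move together between arrays of a group. Over the 10 arrays, with group means removed, 0 of the 6 pairs of Id genes (brightest probe set each) passed after Benjamini-Hochberg adjustment in an exact two-sided permutation test within groups. The closest pair was Id2 and Id3, with Pearson r = 0.59 (permutation p = 0.131, adjusted p = 0.585) and Spearman rho = 0.45 (permutation p = 0.224), and r = 0.62 without the 2 arrays farthest from the median of Id2. Mutant F18 was 0.33 above its group mean for Id2 and 0.25 above it for Id3, and mutant F13 was below it for both. Id1 and Id4 had r = 0.41 (permutation p = 0.376, adjusted p = 0.585; rho = 0.55, permutation p = 0.181), and r = 0.75 without wild type F14_2 and mutant F18. Id3 and Id4 had r = 0.03 (permutation p = 0.902) and rho = -0.13 (permutation p = 0.706), with r = 0.56 without mutants F18 and F19. With 10 arrays these relations are poorly determined, and their sizes rest on a few arrays.

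**Figure D4:**
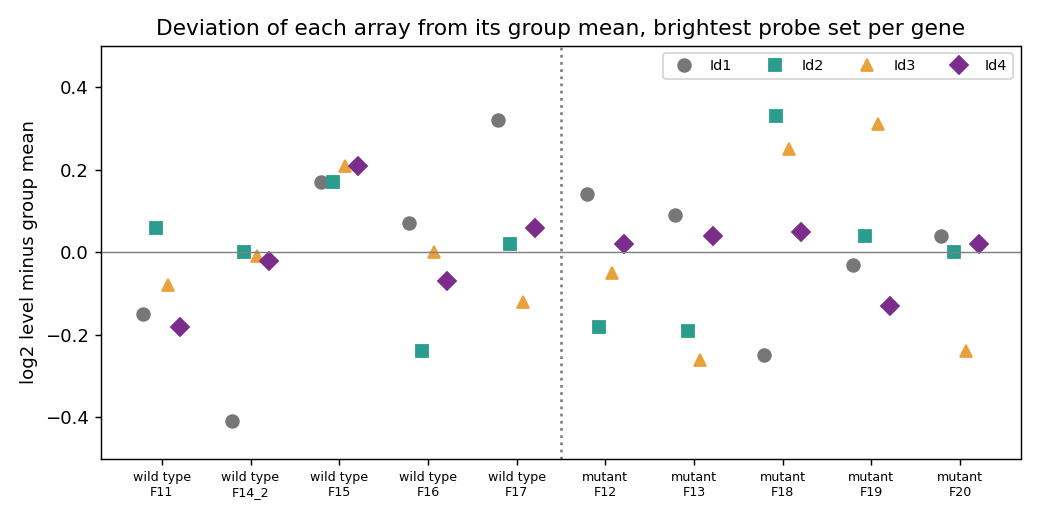
Log2 level of each Id gene (brightest probe set) minus the mean of its own group, for each array; the dotted line divides wild type from mutant. Id4 deviates by at most 0.13 on mutant arrays, while Id2 and Id3 reach 0.33 and 0.31 there.

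Each Id gene was also set against 9 marker lists in the same way, 36 relations in all, and 0 passed after adjustment, with 4 at an unadjusted permutation p of 0.05. Id4 had r = 0.80 with the mean of the adipocyte markers (exact permutation p = 0.00799, adjusted p = 0.144; rho = 0.84, permutation p = 0.00861), and r = 0.90 without wild type F17 and mutant F13. It had r = -0.79 with the smooth muscle markers (exact permutation p = 0.00729, adjusted p = 0.144; rho = -0.87, permutation p = 0.00278), and r = -0.81 without wild type F15 and mutant F13. The adipocyte list mean, made of 6 measured genes of 8, was close in the groups, at 10.35 ± 0.16 in wild type and 10.34 ± 0.16 in the mutant (SD, n = 5 each). With markers of nerve and Schwann cells Id4 had r = 0.71 (exact permutation p = 0.0299, adjusted p = 0.269; rho = 0.78, permutation p = 0.0292), and r = 0.83 without the same arrays as for fat. Id1 had r = 0.80 with the immediate early genes (exact permutation p = 0.0226, adjusted p = 0.269; rho = 0.62, permutation p = 0.139), and r = 0.88 without wild types F11 and F16. Immediate early genes respond within minutes to handling and serum, and their list mean ranged from 6.50 to 8.31 in wild type and from 6.43 to 7.66 in the mutant.

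By this same measure, the genes that moved most like each Id gene between arrays were found among 10944 other tested genes. For Id4 they were Zfp783, a zinc finger gene (r = 0.96), Egfl8, an EGF-like gene (0.94), and Syp, which encodes synaptophysin of nerve terminals (0.94). For Id3 they were Rbpj, the DNA-binding partner of Notch (0.95), AU022252 (0.94) and Mllt3 (0.94). For Id2 they were Hnrnpr, an RNA-binding protein (0.96), Timmdc1, an assembly factor of respiratory complex I (0.96), and Nr3c1, the glucocorticoid receptor (0.94). For Id1 they were Zbtb18, a transcriptional repressor (0.95), Ltv1 (0.94) and Pfn2, a profilin (0.93). No Id gene was among the 3 closest of another, and the 12 genes had differences between mutant and wild type of -0.09 to 0.16, none of them called. Each other gene was counted by its tested probe set of highest r. Values this high are thus the top of more than 10944 comparisons on 10 arrays and are given as a description.

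Partners and regulators of Id proteins were then examined in 10 lists that held 99 tested genes. In these lists 1 gene passed the limma test over all probe sets, where 0.183% of the 10945 tested genes passed by their brightest probe set, and the median difference of all those genes was -0.02. At an unadjusted p of 0.05, 15% of the 10945 passed, and 55.9% had a lower mean in the mutant. The E proteins, which Id proteins bind directly, had 3 of 3 genes tested and 0 called, with 0 at an unadjusted p of 0.05. Tcf4 stood at 8.22 ± 0.07 in wild type and 8.22 ± 0.11 in the mutant (SD, n = 5 each), Tcf12 at 9.12 ± 0.08 and 9.09 ± 0.16, and Tcf3 at 4.30 ± 0.23 and 4.28 ± 0.13. The 3 differences lay between -0.02 and 0.01, with standard errors from 0.07 to 0.11. Further tested probe sets of these genes, none of them called, lay between -0.17 (Tcf12) and 0.04 (Tcf4). With the brown fat covariate the brightest Tcf12 probe set was at 0.18.

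Of the tissue-restricted bHLH factors, 8 of 24 were bright enough to test, and 0 passed, with 3 at an unadjusted p of 0.05 and 6 of the 8 lower in mean. Twist2, a repressor of mesenchymal differentiation, read 4.64, 4.64, 4.23, 4.77 and 4.25 in wild type and 3.83, 4.10, 4.42, 3.30 and 3.83 in the mutant. Its groups overlapped through mutant F18, and its difference was -0.61 ± 0.19 (SE, adjusted p = 0.184). It was -0.18 without the 4 muscle-rich arrays and -0.55 with the skeletal muscle covariate on all arrays. Lyl1, a factor of blood and endothelial cells, had a difference of -0.29 ± 0.13 (adjusted p = 0.295), or -0.55 with the brown fat covariate.

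The list of Hes and Hey repressors, bHLH genes that include targets of Notch, also held Bhlhe40. It had 6 of 12 members tested and 0 called, with 1 at an unadjusted p of 0.05. That gene was Hey1, an arterial Notch target that BMPs also induce. It read 4.42, 4.14, 4.49, 4.32 and 4.44 in wild type and 3.99, 3.98, 3.85, 4.02 and 3.99 in the mutant. The mutant arrays lay wholly below the wild-type arrays, as they did for 2.5% of tested probe sets. The difference was -0.40 ± 0.07 (SE, limma adjusted p = 0.0672, and 0.03 without wild type F14_2). Bhlhe40, a clock-linked repressor, had a difference of -0.21 ± 0.30 (adjusted p = 0.746), whose direction was not settled: it was -1.02 with the brown fat covariate, 0.18 without the muscle-rich arrays, 0.00 without mutant F20 and -0.04 without wild type F15.

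Genes for non-bHLH binding partners of Id proteins, 9 of 13 tested, and for enzymes that control the stability of Id proteins, 9 of 9 tested, had 0 called in either list, with 1 and 0 at an unadjusted p of 0.05. Ets2 had a difference of -0.22 ± 0.09 (adjusted p = 0.279) and Elk4 one of -0.14 ± 0.08 (adjusted p = 0.425). Usp1, a deubiquitinase that stabilises Id proteins, had a difference of -0.14 ± 0.09 (adjusted p = 0.451). Cdc20, an activator of the ligase that marks Id proteins for degradation, had one of 0.15 ± 0.08 (adjusted p = 0.38), at levels near the lower end of the range. Under the brown fat covariate Ets2 was at 0.02, Elk4 at 0.06, Usp1 at 0.14 and Cdc20 at 0.24. Without the muscle-rich arrays Elk4 was at -0.02, Usp1 at -0.07 and Cdc20 at 0.10. With the skeletal muscle covariate Elk4 was at -0.09, Usp1 at -0.12 and Cdc20 at 0.19.

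BMP ligands and antagonists had 17 of 25 genes tested and 0 called, with 3 at an unadjusted p of 0.05 and a median difference of -0.11. Bmp4 read 7.56, 7.58, 7.58, 7.73 and 7.59 in wild type and 6.80, 7.67, 7.06, 7.28 and 6.74 in the mutant. Of the mutant arrays only F13 was within the wild-type range, and the difference was -0.50 ± 0.16 (SE, adjusted p = 0.184). Bmp6, a ligand of the same pathway, had the same odd array: it read 7.17 on mutant F13 and between 6.46 and 6.83 on the other 4, against 7.06 to 7.33 in wild type. Its difference was -0.46 ± 0.13 (adjusted p = 0.163). The lowest Bmp4 readings, F20 and F12, were on muscle-rich arrays, but so was the highest, wild type F16 at 7.73. Without the 4 such arrays, which leaves mutants F13 and F18, the differences were -0.21 for Bmp4 and -0.28 for Bmp6. With the skeletal muscle covariate on all arrays they were -0.44 for Bmp4 and -0.42 for Bmp6.

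BMP receptors and associated membrane proteins had 10 of 11 genes tested and 0 called by their brightest probe set, with 3 at an unadjusted p of 0.05. Bmpr1b, a type I receptor, had a difference of -0.51 ± 0.15 (adjusted p = 0.166) and Tmem100, an endothelial gene induced by BMP signalling, one of 0.47 ± 0.10 (adjusted p = 0.102). In both genes the groups did not overlap, Bmpr1b being lower and Tmem100 higher in the mutant. Of tested probe sets 2.5% had such a separation with the mutant lower, and the share with it higher is not given here. The 2 further probe sets of Bmpr1b lay between -0.24 and 0.03. Neo1, a receptor that also binds the BMP co-receptors of the RGM family, was called on 1 dimmer probe set (adjusted p = 0.0306) but not on its brightest.

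The Smads, which carry the signal of BMP and transforming growth factor beta receptors to DNA, had 7 of 8 genes tested, and all 7 had a lower mean in the mutant. Smad6, the inhibitory Smad that blocks BMP signalling and is itself a BMP target, was the single gene called in the 10 lists. It read 7.56, 7.16, 7.47, 7.46 and 7.28 in wild type and 6.81, 6.77, 6.38, 6.63 and 6.58 in the mutant. The mutant arrays thus lay wholly below the wild-type arrays, as they did for 2.5% of tested probe sets. The Smad6 level fell by 0.75 (log2, SE 0.10), with an adjusted p of 0.0255 by limma. The call was lost when wild type F15 or F16 or mutant F19 or F20 was left out, with adjusted p between 0.057 and 0.0789. It was also lost with no dim filter (adjusted p = 0.0621), by one-way analysis of variance (0.0823) and with the skeletal muscle covariate (0.0652). With the brown fat list mean as a covariate the difference was -1.06 (adjusted p = 0.0995). By their brightest probe sets the other 6 Smads had differences between -0.19 and -0.06. Their further tested probe sets, none of them called, lay between -0.32 (Smad7) and -0.08 (Smad5). The second inhibitory Smad, Smad7, stood at 7.08 ± 0.23 and 6.95 ± 0.05 on its brightest probe set (SD, n = 5 each).

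**Figure D5:**
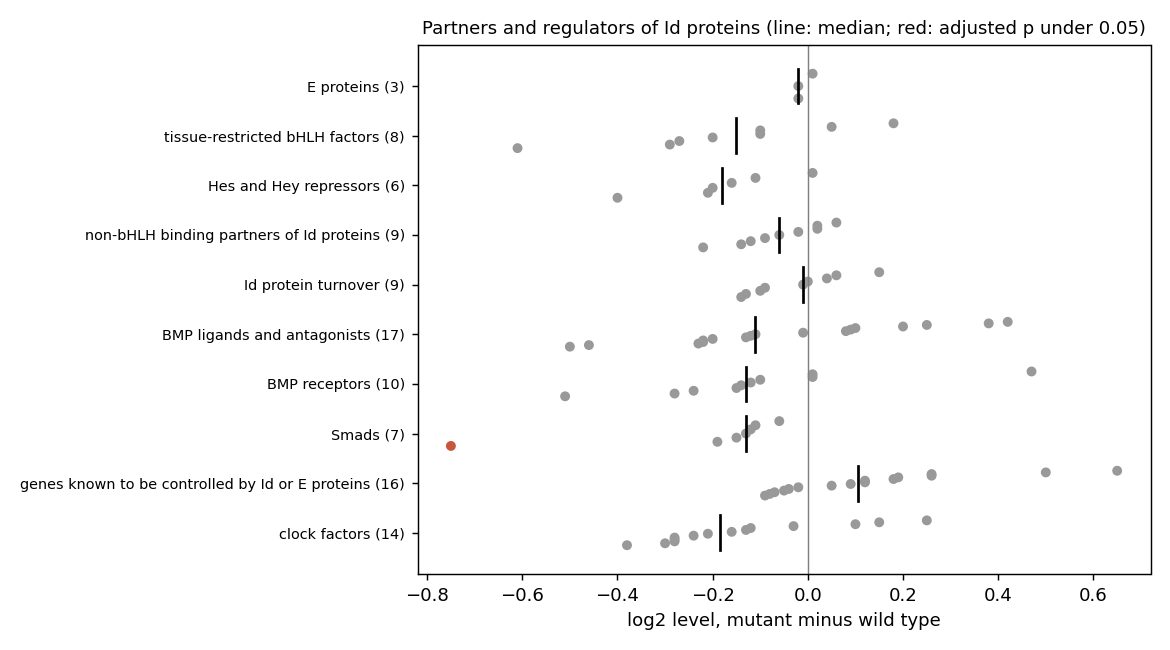
Difference in log2 level, mutant minus wild type, of each tested gene in the 10 lists (points, by brightest probe set, with the number tested in brackets) and the list median (line). Smad6, at -0.75, is the single gene past a limma adjusted p of 0.05, and the E proteins lie between -0.02 and 0.01.

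Genes known to be under the control of Id or E proteins were listed without regard to the direction of that control. Of 18 genes 16 were tested and 0 called, with 3 at an unadjusted p of 0.05. The mean was higher in the mutant for 10 of the 16, and the median difference was 0.11. Over all tested genes 15% had an unadjusted limma p under 0.05, and 55.9% had a lower mean in the mutant. Nothing is read from these counts, and a link to the Id4 difference was not tested. Cebpb, a regulator of fat cell and inflammatory genes, read 9.13, 9.21, 9.58, 9.54 and 9.54 in wild type and 10.34, 10.36, 9.74, 9.75 and 10.08 in the mutant. Its mutant arrays lay wholly above the wild-type arrays, a separation whose share over all probe sets is not given here. The difference was 0.65 ± 0.15 (SE, adjusted p = 0.114). Cdkn1a, the cell cycle inhibitor p21 that E proteins activate and Id proteins oppose, had a difference of 0.50 ± 0.15 (adjusted p = 0.174), and its groups overlapped. With the brown fat list mean as a covariate the differences were 0.39 for Cebpb and 0.33 for Cdkn1a (adjusted p = 0.766 and 0.805), while that of Hey1 was -0.40 (adjusted p = 0.592). Without the muscle-rich arrays Cdkn1a was at 0.22, and with the skeletal muscle covariate on all arrays at 0.43.

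Among clock factors 14 of 15 were tested and 0 called, with 4 at an unadjusted p of 0.05, 11 of 14 lower in mean and a median of -0.18. Those 4 were Per1 (-0.28 ± 0.07, SE), the mutated gene Npas2 itself (-0.28 ± 0.10), Cry2 (-0.24 ± 0.09) and Hlf. Of these, Per1 alone had mutant arrays wholly below the wild-type arrays, as 2.5% of tested probe sets did. Hlf, a PAR bZIP factor driven by the clock, had a difference of -0.38 ± 0.16 (adjusted p = 0.282) and Per3, a period gene, one of -0.30 ± 0.15 (adjusted p = 0.371). Without the muscle-rich arrays, which leaves mutants F13 and F18, these were -0.02 for Hlf and -0.08 for Per3. With the skeletal muscle covariate on all arrays they were -0.29 for Hlf and -0.27 for Per3. With the brown fat covariate Hlf was at -0.53 and Per3 at 0.05. Clock, which encodes the partner that NPAS2 can stand in for, had one of 0.15 ± 0.13 (adjusted p = 0.586). A single time point was sampled, so a shift in the timing of an Id transcript and a change in its mean level cannot be told apart.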

How the data were processed

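Aortic RNA was measured on Affymetrix MOE 430V2 arrays after biotin labelling, per the labels. The authors deposited log2 values, 1 per probe set and array, already summarised and normalised; GCRMA and MAS5 are named in the submitters' processing notes, without saying which made the table. The log2 scale was read from the values (1.10 to 14.74). Array upper quartiles lay between 5.40 and 5.55, and correlations between arrays between 0.986 and 0.996; precision is limited by the number of arrays.

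Symbols came from the platform annotation, 34958 probe sets naming 1 gene, updated by gene identifier to GRCm38.p6 for 34754. Probe sets above their array's median on at least 5 of 10 arrays were tested (22340, 10945 genes). Mutant minus wild type was fitted with limma 3.58.1 in R 4.3.3, two-sided, Benjamini-Hochberg adjusted over all tested probe sets, threshold 0.05. Arrays of this design were simulated over 22340 probe sets, with independent normal noise for each probe set. They recovered 50 of 100 changes of 0.5 and 87 of 100 of 1, with 6 of 143 calls false. Tissue signals shared between probe sets, which the real arrays carry, were not simulated, so these rates need not hold for the data. Correlations used deviations from group means and all 14400 permutations within groups.

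The members and lists were chosen with earlier results of these data known. Named were all Id probe sets, up to 4 called genes per pathway list or, with none called, the 2 of largest difference, the brightest markers of each marker list, and the 3 genes most like each Id gene. Genes named outside that rule (Tcf4, Neo1, Smad7, Clock, Npas2, Per1, Cry2, Elovl3, Ucp1, Smtn, Cnn1, Lmod1, Myh11, Cd14, Adgre1, Emcn, Lep, Cidec, Jun, Ier3) were named after their values were seen. Alternatives covered the dim filter, scaling, variance model, array weights, one-way analysis of variance, thresholds, probe set suffixes, left-out arrays and marker covariates.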

Additional observations from a re-analysis of the deposited data

Results flagged for a closer look

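A single value of the 8 Id probe sets stood apart from the other arrays of its group. For Id4 probe set 1423259_at mutant F19 read 7.52, below the other 4 mutant arrays at 7.67 to 7.70. Chance flags about 1 in 20 groups, and 16 groups of 5 arrays were examined. Without mutant F19 the difference of this probe set was -0.69 instead of -0.73.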

How the results depend on the processing

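All 8 Id differences stayed below 0 under each of the 20 alternatives run on them. Leaving out each array gave -0.77 to -0.67 for Id4 1423259_at, -0.59 to -0.52 for 1450928_at and -0.69 to -0.55 for 1423260_at, and the third kept its call in 1 of 10 such fits. The same fits gave -0.45 to -0.33 (1422537_a_at), -0.38 to -0.25 (1435176_a_at) and -0.27 to -0.14 (1453596_at) for Id2, -0.32 to -0.18 for Id3 and -0.25 to -0.07 for Id1. With the brown fat covariate Id2 1435176_a_at was at -0.06, Id1 at -0.08 and Id3 at -0.13. Id calls were 0 with that covariate (limma, 3 at an unadjusted p of 0.05), 0 without the 4 arrays with most skeletal muscle signal, an alternative chosen after seeing the data (4 at an unadjusted p of 0.05), and 1 at a threshold of 0.01.

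The 48 calls over all probe sets became 17 with no dim filter, 141 with the 75th percentile filter, 13 by one-way analysis of variance, 1 with the brown fat, 7 with the skeletal muscle and 25 with the immediate early covariate. They became 191 at a threshold of 0.10, 6 at 0.01 and 0 without the 4 muscle-rich arrays, and ran from 9 (without wild type F16) to 43 (without wild type F14_2) when an array was left out. Centring on the median of tested probe sets, also added later, turned 21 higher and 27 lower into 34 higher and 18 lower, and put Id4 1423259_at at -0.67. The 1 call in the lists became 0 with no dim filter, by one-way analysis of variance, with the brown fat or skeletal muscle covariate, at 0.01 and without the muscle-rich arrays, and 2 at 0.10 and with gene means. It ran from 0 to 2 when an array was left out. The cause of these shifts was not tested. No Id pair or marker relation passed under any alternative run. No paired analysis was possible because the groups share no replicate identifiers.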
